A study of Mus musculus with 20 samples.

Results

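The levels of 10 engulfment genes were followed across the cortex of aged APOE4 mice fed a ketogenic diet (KD) or a control diet (CD). They are 10 of the 23413 gene names in the count tables and were chosen by name, as receptors that bind dying cells, synapses and debris or as the soluble molecules that bridge such cargo to a receptor. Mertk, Axl and Tyro3 are the TAM receptor tyrosine kinases, Gas6 and Pros1 their ligands, Mfge8 a bridging molecule for the integrin made of Itgav and Itgb5, and Megf10 and Cd36 are scavenger-type receptors. All 10 passed the filter on low counts that left 15660 genes for testing. The samples were frozen brain cortex of 20 mice on a B6 background that carry human APOE4 in place of mouse Apoe, all aged 22 months, individually housed and killed after a fast. Diets were given in isocaloric amounts for 12 months from the age of 10 months, to 9 females (5 CD, 4 KD) and 11 males (5 CD, 6 KD). Each mouse gave 1 stranded total RNA library, and mice are named by the numbers in their labels.

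Cells that die expose phosphatidylserine on their surface, and phagocytes read this lipid either directly or through a bridging molecule. Gas6 and protein S (Pros1) bind the lipid at one end and a TAM receptor at the other, while Mfge8 binds it and holds on to alpha-v integrins through an RGD motif. In the brain, microglia use Mertk and Axl to clear debris, astrocytes use Mertk and Megf10 to take up synapses, and Tyro3 is mainly a receptor of neurons. Cd36 binds oxidised lipids, fatty acids and amyloid, and is found on microglia, macrophages and the endothelium.

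Library totals ranged from 12207161 to 29109990 counts, with 21015275 or more in the 10 libraries whose library numbers form series 1 and 17697342 or fewer in the 10 of series 2, and every group had libraries in both. Mouse Apoe was at no more than 3.34 CPM (counts scaled to the library total). The Y-linked gene Ddx3y was at 14.0 CPM in the library labelled CD female E228, at no more than 1.64 CPM in the other females and at 163.5 CPM or more in the males. Some libraries stood apart in markers of tissue other than cortex. The summed CPM of 16 striatal neuron markers was 2609 to 3305 in KD females E61, E68 and E207, 3872 in KD male E59 and 1215 in CD female E249, against 252 to 661 in the other 15 libraries. The 8 choroid plexus markers summed to 2402 CPM in E59 and to at most 68.2 CPM elsewhere. The 8 meningeal fibroblast markers summed to 447 CPM in KD male E64, 285 CPM in E249, 234 CPM in E68 and 226.9 CPM in KD male E254, and to between 43.8 and 193 CPM in the rest. In bulk tissue, fewer cells of a type and less RNA per cell cannot be told apart.

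All 10 genes were measured in every library, with the lowest count at 15 reads for Cd36 and at 206 reads or more for the other 9. Compared per length, as CPM per kb of exon, Itgav was the highest at 27.5 ± 4.67 (SD, n = 20) and Tyro3 came next at 25.6 ± 6.64. These neighbours could not be ordered, since Itgav was above Tyro3 in 10 of 20 libraries. Gas6 followed at 18.5 ± 5.53, below Tyro3 in 20 of 20 libraries, and Mfge8 at 13.1 ± 5.24, below Gas6 in 19 of 20. Mertk, at 10.7 ± 1.10 CPM per kb, varied least relative to its mean, with a coefficient of variation of 10.3%. Pros1 (7.50 ± 2.06), Axl (7.49 ± 1.41), Itgb5 (7.24 ± 1.93) and Megf10 (6.75 ± 1.82) overlapped so far that each was above the next in 7 to 13 of 20 libraries. Cd36 was lowest at 0.742 ± 0.610 CPM per kb, below Megf10 in 20 of 20 libraries. With the longest transcript of each gene as its length, Mfge8 changed places with Gas6 and the rest of the order was as before. Within the TAM receptors, Tyro3 made up 57.6% ± 6.96 of the summed CPM per kb, Mertk 25.1% ± 4.77 and Axl 17.3% ± 3.33 (SD, n = 20). Axl's share was highest in KD female E68 at 26.9% and lowest in CD female E228 at 13.7%. The counts of 3 genes are uncertain, because exons of Mertk overlap Gm14011, those of Gas6 overlap Tmem255b and those of Itgav overlap Gm13684, each on the opposite strand, and the sources do not state whether strand was used in counting.

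**Figure D1:**
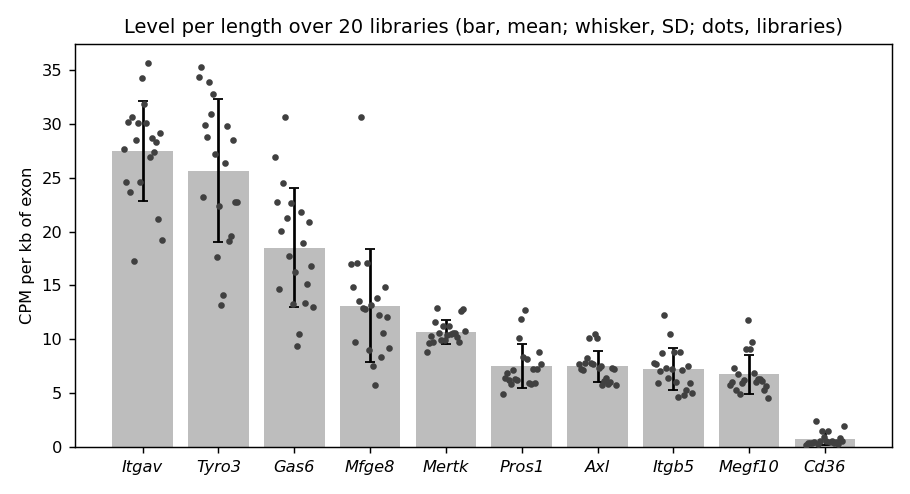
Level of each gene on the vertical axis in CPM per kb of exon, from the highest mean to the lowest. Bars are means over 20 libraries, whiskers SD and dots single libraries; Itgav and Tyro3 overlap widely, while all dots of Cd36 lie below those of the other 9 genes.

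Promoters are shown for Gas6 and Mfge8, whose levels moved together from library to library, and for Cd36, which moved apart from them. Each is the run of 250 bases before the RefSeq start site (GRCm38.p6, the same build as the authors' mm10), written 5′ to 3′ on the gene's own strand. Capitals mark GC boxes, the 6 letters GGGCGG or their reverse complement CCGCCC, overlaps of the motif counted separately. The Gas6 run lies at chr8:13494536-13494785, the Mfge8 run at chr7:79149061-79149310 and the Cd36 run at chr5:17835897-17836146, all on the minus strand. The Cd36 run starts at a site within the longer GENCODE gene, which has further upstream exons.
Gas6: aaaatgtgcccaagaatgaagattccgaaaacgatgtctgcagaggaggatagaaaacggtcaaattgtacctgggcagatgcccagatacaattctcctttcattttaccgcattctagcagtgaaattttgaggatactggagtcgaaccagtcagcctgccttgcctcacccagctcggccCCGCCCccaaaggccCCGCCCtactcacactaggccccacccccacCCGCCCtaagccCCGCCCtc
Mfge8: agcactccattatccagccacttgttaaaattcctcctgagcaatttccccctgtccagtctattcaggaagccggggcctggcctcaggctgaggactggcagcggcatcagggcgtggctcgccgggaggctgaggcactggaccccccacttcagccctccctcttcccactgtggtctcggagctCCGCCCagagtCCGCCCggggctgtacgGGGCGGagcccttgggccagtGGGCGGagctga
Cd36: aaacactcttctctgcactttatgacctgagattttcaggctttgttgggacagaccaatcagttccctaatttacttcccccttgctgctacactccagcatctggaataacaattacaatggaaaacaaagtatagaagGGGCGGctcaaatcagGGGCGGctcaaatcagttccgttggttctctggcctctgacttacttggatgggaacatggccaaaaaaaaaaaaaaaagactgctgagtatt
Gas6 and Mfge8 each held 4 GC boxes, all in the stretch nearest the start site, and Cd36 held 2. Of the 9 genes with an entry (there was none for Megf10), 8 held a GC box on either strand, the exception being Itgav, against 32.7% of 32851 mouse promoters of the same length. Those promoters were not limited to the genes tested in cortex, so the shares come from unlike sets and show no enrichment. GC content of the run was 54.8% for Gas6, 65.2% for Mfge8 and 43.2% for Cd36. A match of letters is a description and not a binding site.

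The question of the main comparison was whether the diet went with a change in engulfment genes in either sex. DEGs were called at FDR 0.1 and a 1.5-fold change, by the quasi-likelihood test of edgeR, with p adjusted by Benjamini-Hochberg over all 15660 genes. None of the 10 genes was called between KD and CD females (0 of 10, against 0.0447% of all genes tested), and none between KD and CD males (0 of 10, against 0.0% of all genes tested). In females 1 of the 10 genes, Axl, was higher on the KD at an unadjusted p under 0.05 (5.86% of all genes were), and in males 1 of the 10, Cd36 (2.37% of all genes), and in neither sex was any of the 10 lower at that level (5.5% of all genes in females and 1.19% in males). The log2 fold change was above 0 for 8 of 10 genes in females (52.7% of all genes) and for 7 of 10 in males (49.1% of all genes). Its median was 0.23 in females and 0.059 in males, beside 0.013 and -0.003 over all genes tested. The CPM of KD and CD mice overlapped for each of the 10 genes in both sexes (2.1% of all genes did not overlap in females and 0.217% in males). In males the adjusted p was 0.9998 for each of the 10 genes. The share of all genes called in females was higher without either of 2 libraries, at 6.66% without CD female E249, 5.68% without KD female E227 and 12.2% without both, while 0 of the 10 genes were called without either one alone. Without both, the striatal markers summed to 2609 CPM or more in every KD female and to 340 CPM or less in every CD female. Diet and striatal content thus coincided in that fit. With both sexes in one contrast 0 of 10 genes were called (0.268% of all genes were), and 2 of 10, Cd36 and Itgb5, were higher on the KD at an unadjusted p under 0.05 (7.41% of all genes), and 0 were lower (6.44% of all genes). No gene of the 10 separated KD from CD mice there (0.00639% of all genes did).

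**Figure D2:**
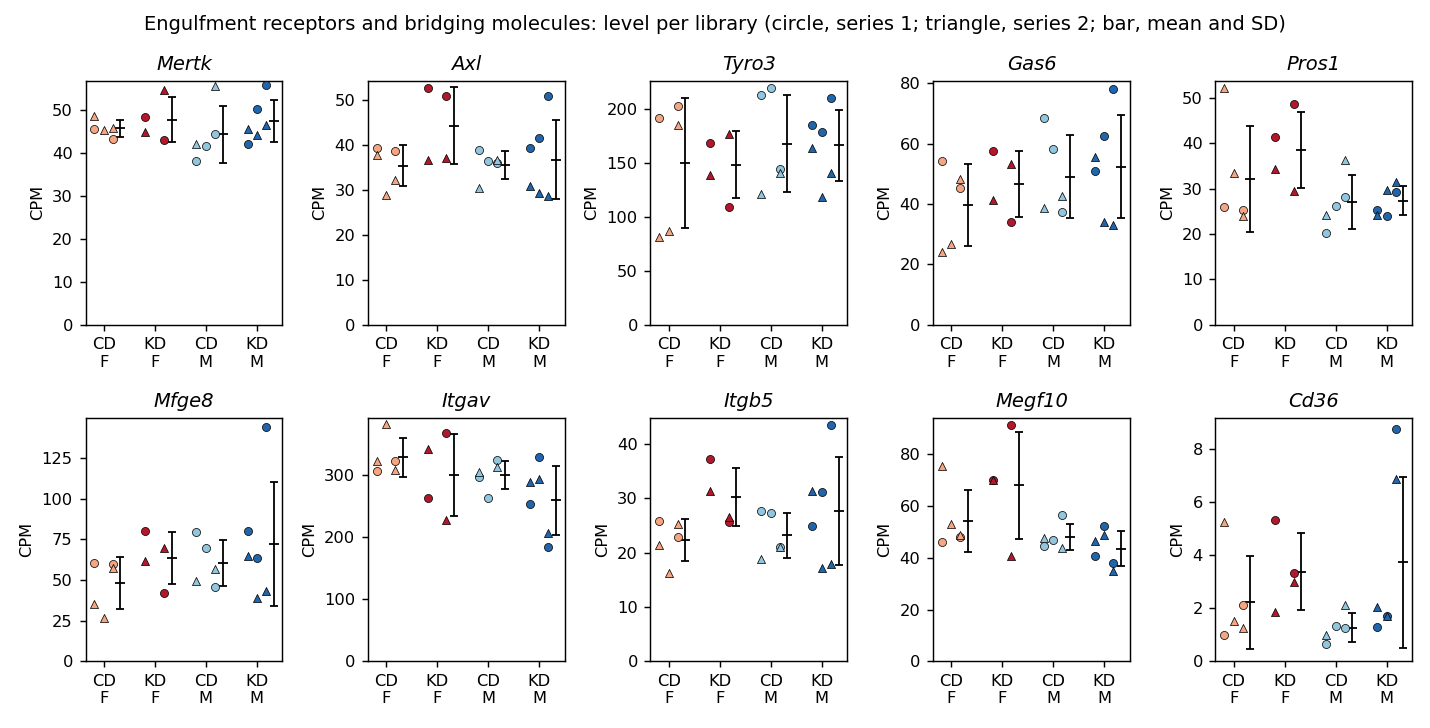
CPM of each gene (vertical axis, from 0) in CD and KD females (F) and males (M). Circles are libraries of series 1, triangles those of series 2, and the bar beside each group is its mean and SD; KD and CD libraries overlap in every panel, and Mertk varies least relative to its mean.

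Mertk, the TAM receptor best known for clearance of apoptotic cells, lies on chromosome 2 of GRCm38 from 128698956 to 128802894 on the plus strand, with 19 exons in its longest transcript. It was at 45.7, 43.2, 48.7, 45.4 and 45.9 CPM in CD females E62, E67, E249, E265 and E228, and at 48.5, 43.1, 44.9 and 54.8 CPM in KD females E61, E68, E207 and E227. CD males ran from 38.3 to 55.7 CPM and KD males from 42.1 to 56.0 CPM. Both diets thus spanned nearly the same levels. The log2 fold change was 0.011 in females (with a standard error, SE, of 0.103 and a 95% interval of -0.21 to 0.23) and 0.077 in males (interval -0.12 to 0.27), so that a 1.5-fold difference (0.58 on the log2 scale) lay outside the interval in both sexes. Its direction in females turned without the filter on low counts, to -0.0045.

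Axl (chromosome 7, 25757273 to 25788705, minus strand, 20 exons), the TAM receptor that inflammation induces and that binds Gas6 alone, was the gene of smallest p in females. CD females E62, E67, E249, E265 and E228 had 39.5, 38.8, 37.9, 29.0 and 32.2 CPM, and KD females E61, E68, E207 and E227 had 52.8, 50.9, 36.7 and 37.1 CPM. The 2 highest were KD females E61 and E68, both of library series 1, while the other 2 KD females lay among the CD females. Axl was higher in series 1, with a mean of 42.5 CPM, than in series 2, with 32.9 CPM. Within series 2, KD females E207 and E227 were above CD females E265 and E228 and below E249. On the KD, the change of Axl in females was 0.22 on the log2 scale (SE 0.101, unadjusted p = 0.0437, adjusted p = 0.423 from edgeR). Its unadjusted p was 0.0460 with TMM normalization and 0.0421 by the DESeq2 Wald test. In edgeR it was 0.0680 without the filter on low counts, 0.0918 without the series term and 0.0924 with RUVg. By the likelihood ratio test it was 0.0603, and 0.0807 with each sex fitted separately. Within series 1 the change of Axl was 0.37 and within series 2 it was 0.093, with adjusted p of 0.202 and 0.873. Without E249 it was 0.29 with an adjusted p of 0.0944, which is under 1.5-fold and so was not called. Without both E249 and E227 it was 0.30 with an adjusted p of 0.0685, again under 1.5-fold. In CD males Axl was between 30.4 and 38.9 CPM, and in KD males its lowest, median and highest values were 28.7, 35.1 and 50.9 CPM, the highest being E64. The log2 fold change in males was 0.042 and fell below 0 in series 2 alone (-0.17) and without E64 (-0.026). Axl rose and fell with the summed markers of oligodendrocyte precursors (Pearson r = 0.88, Spearman rho = 0.63), perivascular macrophages (r = 0.87, rho = 0.48) and meningeal fibroblasts (r = 0.83, rho = 0.41) over the 20 libraries after removal of group and series means. Without the 2 libraries of most extreme marker level, these r were 0.70, 0.74 and 0.64. For mural cell markers r was 0.78 (rho = 0.57, and r = 0.72 without the 2 libraries). It was 0.63 for endothelial (rho = 0.55) and 0.60 for astrocyte markers (rho = 0.53). The match was thus not particular to 1 cell type, and the precursor and mural cell lists share Cspg4. With the meningeal fibroblast score as a further term, the log2 fold change of Axl was 0.15 in females and -0.072 in males, with adjusted p of 0.616 and 0.9999. That score also takes up part of any diet difference, since all 8 fibroblast markers had log2 fold changes above 0 in both sexes.

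Tyro3 (chromosome 2, 119797733 to 119818104, plus strand, 20 exons), the TAM receptor of neurons, varied most among CD females. They had 192, 203, 81.6, 87.2 and 185 CPM in E62, E67, E249, E265 and E228, and KD females E61, E68, E207 and E227 had 169, 109, 139 and 177 CPM. E249 and E265 were thus at less than 90 CPM, below every other library of the series, and E68 was lowest among the KD females. CD males had 213.1, 219, 144, 122 and 141 CPM in E51, E58, E66, E251 and E264, and the lowest, median and highest KD males had 119, 171 and 210 CPM. For Tyro3 the log2 fold change came to -0.047 in females (interval -0.49 to 0.40, adjusted p = 0.973) and 0.020 in males (interval -0.39 to 0.42). In females it was -0.55 within series 1 and 0.36 within series 2, and ran from -0.23 without E227 to 0.13 without E68.

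Gas6 (chromosome 8, 13465374 to 13494490, minus strand, 15 exons), the ligand of all 3 TAM receptors, was lowest in the same CD females as Tyro3. It was at 54.1, 45.2, 23.9, 26.8 and 48.3 CPM in CD females E62, E67, E249, E265 and E228, and at 57.6, 33.9, 41.3 and 53.2 CPM in KD females E61, E68, E207 and E227. CD males ran from 37.4 to 68.5 CPM with the highest in E51, and KD males from 33.1 to 78.0 CPM with a median of 53.3 CPM and the highest in E64. For Gas6 the log2 fold change came to 0.17 in females (SE 0.223, adjusted p = 0.866) and 0.11 in males (SE 0.201). Within series 1 alone the value in females was -0.16, and within series 2 it was 0.45. Without E227 it was 0.0019 and without E68 0.35, and in males it was 0.0077 without E66 and 0.19 without E51.

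Pros1 (chromosome 16, 62854307 to 62929346, plus strand, 15 exons) encodes protein S, an anticoagulant of plasma that also binds Mertk and Tyro3. CD females E62, E67, E249, E265 and E228 had 25.9, 25.3, 52.1, 33.4 and 23.9 CPM, and KD females E61, E68, E207 and E227 had 41.4, 48.7, 34.2 and 29.5 CPM. The highest library of all was CD female E249, above every KD female, and the other 4 CD females lay below KD females E61, E68 and E207. CD males had 20.2 to 36.2 CPM and KD males 24.02 to 31.4 CPM. The change of Pros1 on the log2 scale was 0.24 in females (SE 0.218, adjusted p = 0.771) and -0.0099 in males (SE 0.195). Within series 1, which holds 2 CD and 2 KD females, it was 0.78 with an adjusted p of 0.0667 and was called (5.42% of all genes were in that series), while within series 2, which holds E249, it was -0.26 with an adjusted p of 0.840. Without KD female E68 the value in females was 0.071, and without E249 it was 0.46 (adjusted p = 0.174). Without both E249 and E227 it was 0.584 (adjusted p = 0.0444), just under the 1.5-fold threshold of 0.585, and so was not called. Diet and striatal content coincided in that fit, as given above. The ratio of Gas6 to Pros1 in levels per kb ran from 0.737 in E249 to 5.43 in CD male E51, with a mean of 2.30 ± 1.20 in CD females (n = 5), 2.04 ± 0.736 in KD females (n = 4), 3.12 ± 1.44 in CD males (n = 5) and 3.15 ± 1.14 in KD males (n = 6, all SD).

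Mfge8 (chromosome 7, 79133768 to 79149060, minus strand, 6 exons in the longest transcript), which coats dying cells and debris, was at 60.7, 60.0, 35.5, 26.8 and 57.7 CPM in CD females E62, E67, E249, E265 and E228. KD females E61, E68, E207 and E227 had 80.0, 42.1, 61.96 and 69.8 CPM. KD females E61, E207 and E227 were above all CD females, while E68 fell among them. CD males ran from 45.8 to 79.9 CPM and KD males from 39.0 to 144 CPM with a median of 64.1 CPM, the highest being E64. Mfge8 stood at 0.35 on the log2 scale, KD against CD, in females (SE 0.265, adjusted p = 0.708) and 0.24 in males (SE 0.240), and without E64 it was -0.0021 in males. Without E227 it was 0.20 in females and without E68 0.55. In females it was -0.032 within series 1 and 0.65 within series 2.

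Itgav, the alpha-v chain (chromosome 2, 83724397 to 83806916, plus strand, 30 exons), and Itgb5, the beta-5 chain (chromosome 16, 33829665 to 33949338, plus strand, 15 exons), pair as the integrin alpha-v beta-5. Neither was called. Itgb5 was at 25.9, 22.9, 21.4, 16.4 and 25.3 CPM in CD females E62, E67, E249, E265 and E228, and at 37.4, 25.6, 31.4 and 26.6 CPM in KD females E61, E68, E207 and E227. Only E62 among the CD females reached the lowest KD female, E68. CD males had 18.8 to 27.7 CPM and KD males 17.2 to 43.5 CPM with a median of 28.0 CPM. The log2 fold change of Itgb5 was 0.35 in females (SE 0.181, adjusted p = 0.494) and 0.26 in males (SE 0.164, and 0.12 without E64), and with the sexes together 0.30 (SE 0.122, unadjusted p = 0.0228, adjusted p = 0.261). It was above 0 in each series, at 0.33 in series 1 and 0.28 in series 2 with the sexes together. Itgav was between 306.5 and 383 CPM in CD females, at 264.2, 368, 342 and 227.4 CPM in KD females E61, E68, E207 and E227, between 264.2 and 325 CPM in CD males and between 185 and 329 CPM in KD males. Its 3 lowest libraries, E64, E254 and E227, were KD mice. The log2 fold change of Itgav was -0.18 in females (SE 0.171, adjusted p = 0.784) and -0.23 in males (SE 0.153). It was -0.053 in females without E227 and -0.32 without E68, and -0.13 in males without E64. The summed oligodendrocyte markers were also lowest in E64 and E254, at 1522 and 1732 CPM against 2766 CPM or more in the other 18 libraries, and their part in the level of Itgav was not tested.

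Megf10, on chromosome 18, is a receptor through which astrocytes engulf synapses. CD females E62, E67, E249, E265 and E228 had 45.9, 48.1, 75.2, 52.8 and 48.6 CPM, and KD females E61, E68, E207 and E227 had 69.9, 91.1, 69.9 and 40.8 CPM. The 4 highest libraries of the series were these 3 KD females and CD female E249, and E227 was the lowest of all females. The same 4 females had the summed striatal neuron markers of 1215 CPM and more given above. KD male E59, with the highest striatal sum of all at 3872 CPM, had Megf10 at 52.2 CPM, inside the range of the CD males. CD males lay between 43.7 and 56.3 CPM and KD males between 34.8 and 52.2 CPM. In log2, KD against CD, Megf10 was at 0.26 in females (SE 0.199, adjusted p = 0.704) and -0.15 in males (SE 0.179). Without E249 and E227 it was 0.59 in females with an adjusted p of 0.0158 and was called, as were 12.2% of all genes, and the interaction of diet and sex was then 0.75 (adjusted p = 0.0561) and was called too, as were 3.56% of all genes. In the fit without E249 and E227, the summed striatal markers were 2609 to 3305 CPM in KD females and 252 to 340 CPM in CD females. Diet and striatal content could therefore not be told apart there. Without KD female E68 Megf10 was at 0.083 in females (adjusted p = 0.882), and without E227 alone at 0.47 (adjusted p = 0.164). When the striatal marker score was added as a term, it was -0.12 in females (adjusted p = 0.918), a score that also takes up part of any diet difference, as E61, E68 and E207 had the highest values among the females. After removal of group and series means, Megf10 went with the summed inhibitory neuron markers (r = 0.87, rho = 0.89, n = 20) and striatal markers (r = 0.67, rho = 0.66), and against the cortical excitatory neuron markers (r = -0.83, rho = -0.77). Without the 2 libraries of most extreme marker level these r were 0.75, 0.59 and -0.68.

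Cd36 (chromosome 5, 17781690 to 17888801, minus strand, 15 exons), the scavenger receptor and fatty acid transporter, had the lowest level and the widest spread, with a coefficient of variation of 82.2% over the 20 libraries against 10.3% for Mertk. Its counts were between 15 and 243 reads per library, so that its precision is lower than that of the others. CD females E62, E67, E249, E265 and E228 had 0.999, 2.11, 5.24, 1.51 and 1.24 CPM, and KD females E61, E68, E207 and E227 had 5.32, 3.32, 1.84 and 2.99 CPM. CD males E51, E58, E66, E251 and E264 had 0.650, 1.34, 1.25, 1.004 and 2.13 CPM, and the lowest, median and highest KD males had 1.29, 1.87 and 8.75 CPM. KD males E64 and E254, at 8.75 and 6.87 CPM, stood above all other libraries, and the other 4 KD males lay between 1.29 and 2.04 CPM, inside the range of the CD males.

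The log2 fold change of Cd36 was 1.53 in males (SE 0.547, interval 0.38 to 2.68, unadjusted p = 0.0116) and 0.61 in females (SE 0.595, adjusted p = 0.797). With the sexes together it was 1.07 (SE 0.402, unadjusted p = 0.0155, adjusted p = 0.226). In males it was 1.78 within series 1 and 1.19 within series 2, and 0.94 without E64. In females it was 1.41 within series 1 and -0.18 within series 2. CD female E249 bore on the result as well. Without it the value with the sexes together was 1.34 and was called (adjusted p = 0.0413, 5.04% of all genes called), and in females alone it was 1.14 (adjusted p = 0.298). Without E249 and E227 it was 1.35 with the sexes together and was called, as were 7.83% of all genes. Without KD female E61 it was 0.30 in females. Meningeal fibroblast markers moved with Cd36 (r = 0.82, rho = 0.60, n = 20, and 0.75 without the 2 most extreme libraries). So did markers of oligodendrocyte precursors (r = 0.77, rho = 0.57), microglia (r = 0.75, rho = 0.78) and perivascular macrophages (r = 0.71, rho = 0.54). For mural cell and endothelial markers r was 0.52 (rho = 0.17) and 0.51 (rho = 0.55), so the match was not particular to 1 cell type. The lists are also not independent, as the precursor and mural cell lists share Cspg4. The precursor sum was highest in E64, at 189 CPM, where the fibroblast sum was highest too. All 8 fibroblast markers were detected in every group, and all 8 had log2 fold changes above 0 in females (median 0.34) and in males (median 0.74). With the fibroblast score as a further term, the log2 fold change of Cd36 was 0.60 in males, 0.33 in females (adjusted p = 0.949) and 0.46 with the sexes together (adjusted p = 0.996). The fibroblast score also takes up part of any diet difference. Without E64, E254 and E249, chosen after their values were seen, the value of Cd36 was 0.39 in males, 1.14 in females (adjusted p = 0.0656, called, as were 7.42% of all genes) and 0.76 with the sexes together (adjusted p = 0.0959, called, as were 3.58%).

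**Figure D3:**
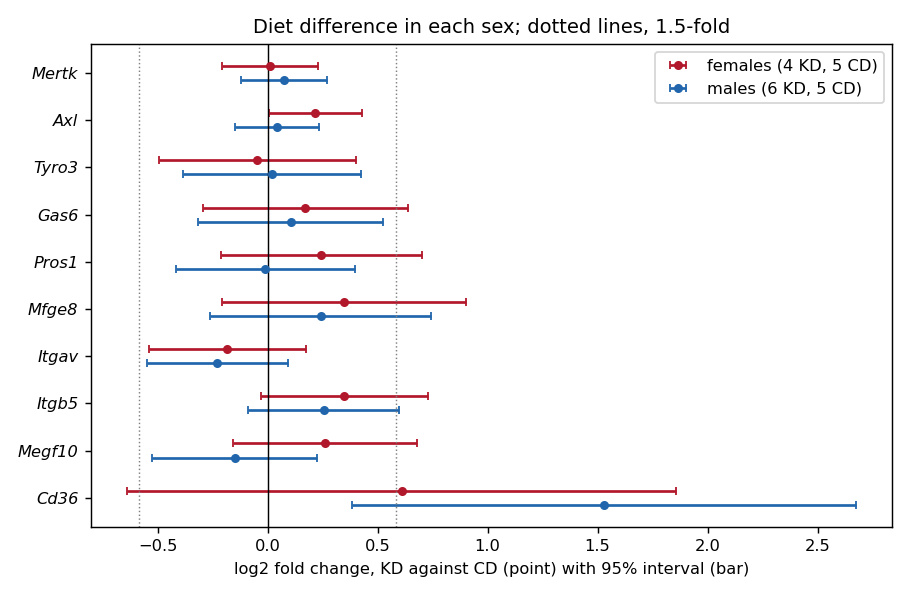
Log2 fold change of KD against CD (horizontal axis) for each gene in females (red) and males (blue), with 95% intervals from the edgeR fit as bars and 1.5-fold as dotted lines. The intervals of Axl in females and Cd36 in males leave out 0, before adjustment for the number of genes tested.

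**Figure D4:**
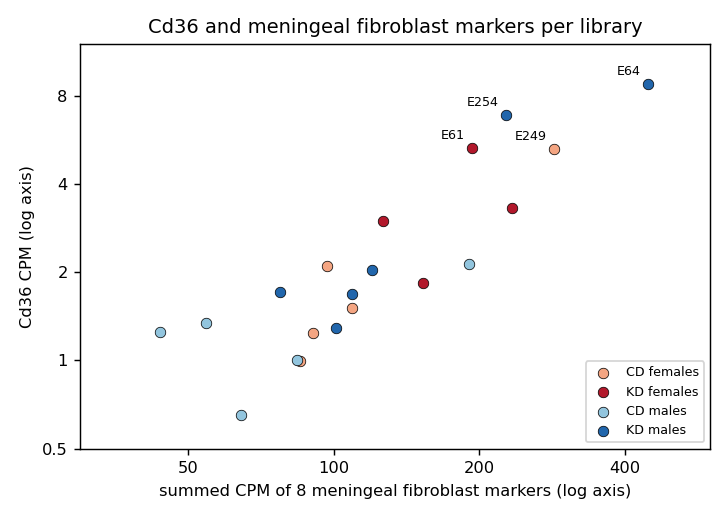
Cd36 CPM (vertical log axis) against the summed CPM of 8 meningeal fibroblast markers (horizontal log axis), 1 point per library, coloured by group. The libraries of highest Cd36, named beside their points, lie at the upper right, at 193 CPM of the markers or more.

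Between females and males, averaged over the diets, 0 of 10 genes were called (0.134% of all genes were). Of the 10 genes, 3 were higher in females at an unadjusted p under 0.05 (8.59% of all genes) and 0 were lower (4.96% of all genes). The difference in log2 was 0.40 for Megf10 (SE 0.133, adjusted p = 0.222), 0.35 for Pros1 (SE 0.145, adjusted p = 0.301) and 0.15 for Axl (SE 0.0679, adjusted p = 0.331). Without KD female E227, Megf10 was at 0.49 (adjusted p = 0.0207) and Pros1 at 0.41 (adjusted p = 0.0909). Both were under 1.5-fold and so were not called, while 813 of 15949 genes were. Megf10 fell to 0.30 without KD female E68, and Pros1 to 0.24 without CD female E249. Females and males overlapped in each of the 10 genes (0.0575% of all genes did not). The value of Megf10 was 0.39 within series 1 and 0.35 within series 2, that of Pros1 0.39 and 0.21, and that of Axl 0.14 in each. With the striatal marker score as a term they were 0.21, 0.21 and 0.12, with adjusted p of 0.999. That score also takes up part of any sex difference, since all 16 striatal markers were higher in females (median log2 difference 1.08). The other 7 genes had log2 fold changes from -0.19 to 0.30. The difference of the diet effects between the sexes was itself tested as an interaction, and 0 of 10 genes were called (0.0% of all genes) with 0 at an unadjusted p under 0.05 in either direction (1.09% of all genes were higher in females and 1.05% lower). It ran from -0.92 for Cd36 (interval -2.61 to 0.77) to 0.41 for Megf10 (interval -0.15 to 0.98), with adjusted p of 0.9999 throughout.

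Several of the 10 genes shared their spread between libraries. With group and series means removed, Tyro3, Gas6, Mfge8 and Itgb5 rose and fell together over the 20 libraries. Pearson r was 0.86 for Gas6 with Tyro3 (rho 0.79), 0.86 for Gas6 with Mfge8 (rho 0.82) and 0.79 for Mfge8 with Itgb5 (rho 0.74). The weakest pair among them was Tyro3 with Itgb5, at 0.48 (rho 0.49). Pros1, Megf10 and Itgav tended the other way, with r = -0.81 for Tyro3 with Pros1 (rho -0.78) and 0.75 for Megf10 with Itgav (rho 0.75). The division was loose, as r was only 0.19 for Pros1 with Itgav. Itgb5 had only -0.19 with Megf10, -0.30 with Pros1 and -0.37 with Itgav. Ligand and receptor pairs had no common sign, since Gas6 had r = 0.86 with Tyro3, 0.085 with Mertk and -0.044 with Axl. These points share their libraries and depth and are given as a description, for 45 pairs of genes.

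The GC content of the transcripts went with this division in part, Megf10, Cd36 and Axl being exceptions. In the longest GENCODE transcript it was 57.0% for Itgb5, 56.6% for Gas6, 56.2% for Mfge8 and 55.4% for Tyro3, all in the upper quartile of tested genes (54.4% and more). It was 43.4% for Pros1, 43.6% for Itgav and 38.4% for Cd36, in the lower quartile (44.8% and less), while Mertk had 48.1%, Megf10 48.0% and Axl 54.2%. A GC index was computed for each library as the mean log2 CPM of the genes in the upper quartile minus that of the genes in the lower, centred over the 20 libraries. It ran from -0.97 in CD female E249 and -0.78 in CD female E265 to 0.68 in CD male E51 and 0.80 in KD male E64. Gas6 followed it most closely, with r = 0.98 (rho = 0.95, and r = 0.97 without the 2 most extreme libraries, 0.98 within series 1 and 0.99 within series 2). The r was 0.90 for Tyro3 (rho 0.87), 0.90 for Mfge8 (rho 0.92) and 0.72 for Itgb5 (rho 0.69). It was -0.76 for Pros1 (rho -0.73), -0.72 for Megf10 (rho -0.70) and -0.53 for Itgav (rho -0.53), and it was 0.066 for Mertk, -0.038 for Axl and -0.21 for Cd36. What set this index was not tested. Tyro3 and Gas6 also went with the cortical excitatory neuron markers, with r of 0.82 and 0.72 (rho 0.82 and 0.77).

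**Figure D5:**
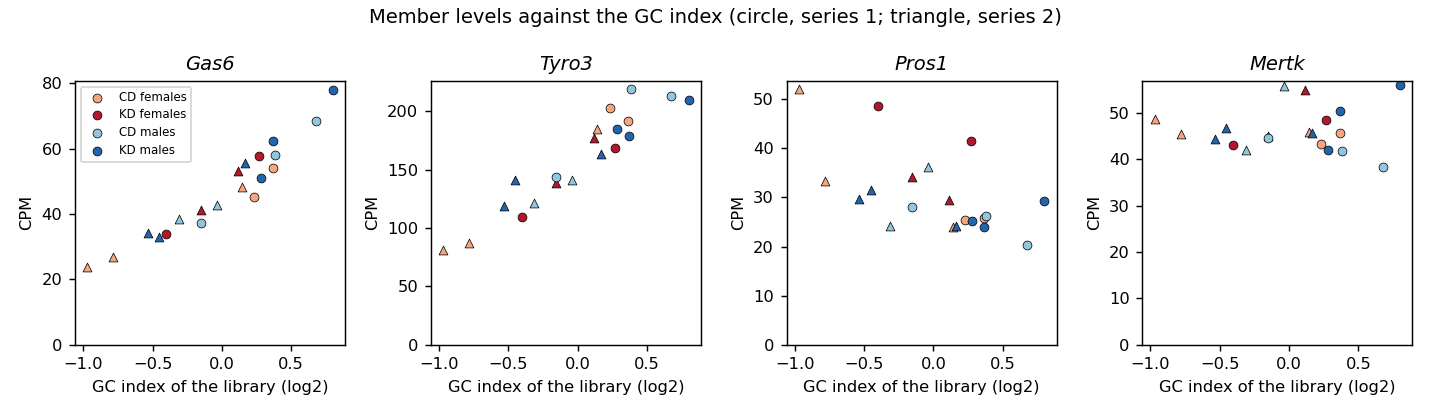
CPM of Gas6, Tyro3, Pros1 and Mertk (vertical axes, from 0) against the GC index of the library (horizontal axis, log2 scale), 1 point per library, coloured by group, with circles for series 1 and triangles for series 2. Gas6 and Tyro3 rise along the index from E249 at -0.97 to E64 at 0.80, Pros1 falls, and Mertk shows no trend.

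With the GC index as a further term, chosen after these values were seen, 0 of 10 genes were called in females (1.65% of all genes were) and in males (0.0% of all genes). The SE of Gas6 in females, a gene with r = 0.98 to this term, was 0.0589 in place of 0.223. The log2 fold change of Gas6 was 0.080 in place of 0.17. The SE of Cd36 in females rose from 0.595 to 0.627, and those of Mertk and Axl were 0.0980 and 0.0942 in place of 0.103 and 0.101. For Tyro3 in females the log2 fold change was -0.12 with a SE of 0.104, and for Mfge8 it was 0.22 with a SE of 0.128. In that fit the KD females were higher in 4 of the 10 genes at an unadjusted p under 0.05, as they were in 10.0% of all genes. These were Axl (0.22, adjusted p = 0.212), Itgb5 (0.29, adjusted p = 0.230), Megf10 (0.31, adjusted p = 0.244) and Pros1 (0.32, adjusted p = 0.254).

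The genes whose residuals were most like each of the 10, among all 15660 tested and over 20 libraries, were found by Pearson r. For Gas6 they were Akt1 (0.98), Map2k2 and Tmem259, for Tyro3 Smg9 (0.98) and Dgkz, for Mfge8 Bysl (0.96), Tubb2b and Ldoc1l, and for Itgb5 Acsbg1 (0.95), Tln1 and Abtb2. For Pros1 they were Mr1 (0.97), Ginm1 and Glud1, for Megf10 Inpp5f (0.95), Reep3 and Tmtc2, and for Itgav Aebp2 (0.91), Asah2 and Kcnd2. Axl was closest to Smad6 (0.93), Col4a5 and Igf2, the last a meningeal fibroblast marker, and Cd36 to Cyp26b1 (0.90), Scml4 and Mmd2. Mertk had no gene above 0.74, reached by Slc30a6. None of the 10 was among the 3 closest genes of another.

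Other genes of the pathway were described from lists of further receptors, bridging molecules, signalling, brakes and regulators. Of 20 tested receptors for phosphatidylserine and debris outside the 10, 0 were called in any comparison, and in KD females 3 were higher and 0 lower at an unadjusted p under 0.05 (5.86% and 5.5% of all genes were, which holds for the other lists too), with a median log2 fold change of 0.18. Cd68, a lysosomal glycoprotein of phagocytes, had 0.58 in females (adjusted p = 0.202) and Trem2, a microglial lipid receptor, 0.49 (adjusted p = 0.322). Of 13 other bridging molecules and opsonins 0 were called, 3 were higher and 0 lower at that level, and the median was 0.43. The complement subunit genes C1qb and C1qc, whose product tags synapses for removal, had 0.55 (adjusted p = 0.226) and 0.43 (adjusted p = 0.316). In males the medians of these lists were 0.054 and 0.081. The 12 microglial markers all had log2 fold changes above 0 in females (median 0.22, 0 called), and their summed CPM was 448 to 607 in KD females and 364 to 514 in CD females. Their part in the values of the receptors and C1q genes was not tested.

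Among 22 signalling genes downstream of the receptors, 0 were called for diet, and in KD females 1 was higher and 1 lower at an unadjusted p under 0.05, with a median of 0.077. Ptk2, the focal adhesion kinase gene that acts below alpha-v integrins, stood at -0.52 on the log2 scale (adjusted p = 0.190), and Vav3, an exchange factor for Rac, at 0.53 (adjusted p = 0.330). Among 18 genes of brakes, find-me signals and lipid exposure 0 were called, and 3 were higher and 1 lower, with a median of 0.041. Cd200r1, the receptor of the inhibitory ligand CD200, had -1.10 (adjusted p = 0.273) at a mean of 1.03 CPM over the libraries, and Xkr8, a scramblase that exposes phosphatidylserine, had 0.65 (adjusted p = 0.307). Of 8 regulators and partners of the TAM receptors 0 were called, with a median of 0.057. Adam17, a protease that sheds Mertk, had 0.28 (adjusted p = 0.417). In males the medians of these 3 lists were 0.036, 0.070 and 0.032, with 0 called.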

How the data were processed

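Total RNA of cortex was sequenced as stranded libraries in 50-bp read pairs, 1 per mouse. STAR was used by the authors for alignment to mm10, and raw read counts, 1 value per gene, were deposited. The aligner's version, the annotation and the strand setting are not given in the sources used here. The 10 genes and all lists were chosen with earlier results of these data known. Groups came from the sample labels, whose SD is the CD, and series from the library numbers. No 2 libraries of a group agreed within sampling noise.

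Counts were tested with edgeR 4.0.16 in R 4.3.3: upper-quartile normalization, filterByExpr (15660 genes), terms for the 4 groups and series, robust quasi-likelihood F test, Benjamini-Hochberg adjustment. The authors' RUVg step, given without factors or controls, served as an alternative. CPM used library totals, and residuals log2 CPM with a prior count of 2. A marker score is the mean z-score of log2 CPM over a list. Exons came from GENCODE vM21 and promoters from RefSeq. Alternatives were TMM, DESeq2 1.42.0, no filter, no series term, the likelihood ratio test, single series, single sexes, left-out libraries, and scores and the GC index as terms. GC values existed for 93.7% of tested genes. Named genes were all 10, the 3 of highest r with each, and up to 2 per pathway list of smallest p in females; 2 genes that this rule names are not reported here.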

Additional observations from a re-analysis of the deposited data

Results flagged for a closer look

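Among 40 groups of 4 to 6 libraries (10 genes in 4 groups), 2 had 1 library far from the others, and 2 are expected by chance alone. Megf10 in CD females had E249 apart at 75.2 CPM, with a gap to the next library of 0.717 of the group's range. Itgav in CD females had E265 apart at 383 CPM, with a gap of 0.756 of the range.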

How the results depend on the processing

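Under 14 alternatives other than leaving out 1 library, 313 of 345 log2 fold changes kept their direction and their side of the threshold, 27 turned and 5 passed it. The number of genes called changed from 0 to 1 in these fits: in females with series 1 alone (Pros1), without E249 and E227 (Megf10) and without E64, E254 and E249 (Cd36), with the sexes together without E249 and E227 (Cd36, 1.35) and without E64, E254 and E249 (Cd36), and for the interaction without E249 and E227 (Megf10). Of all genes, 3.56% to 12.2% were called in these fits. When single libraries were dropped, the number called was 0 throughout in females, in males, between the sexes and for the interaction, and 0 to 1 with the sexes together.
In females the turned values were Mertk at -0.0045 without a filter, -0.036 without E249 and E227, -0.0032 with the striatal score and -0.023 with the fibroblast score. Tyro3 was at 0.36 in series 2, 0.16 with the striatal and 0.0048 with the fibroblast score, Gas6 at -0.16 in series 1 and -0.092 without E249 and E227, and Mfge8 at -0.032 in series 1. Pros1 was at -0.26, Megf10 at -0.16 and Cd36 at -0.18 in series 2, and Megf10 at -0.12 with the striatal score.
In males they were Tyro3 at -0.026 without the series term, -0.044 in series 1, -0.0078 with the GC index and -0.020 without E64, E254 and E249, and Pros1 at 0.0037, 0.0052 with RUVg, 0.021 in series 1 and 0.029 with the GC index. In series 2 Mertk was at -0.091, Axl at -0.17 and Mfge8 at -0.12, and Axl was at -0.072 with the fibroblast score and -0.0033 without E64, E254 and E249.
With 1 library left out, 16 values of 6 results turned. The ranges were -0.053 to 0.052 for Mertk and -0.23 to 0.13 for Tyro3 in females, and in males -0.026 to 0.11 for Axl, -0.044 to 0.085 for Tyro3, -0.095 to 0.096 for Pros1 and -0.0021 to 0.33 for Mfge8. The cause was not tested. The block on the mouse numbers: No paired analysis was possible because no number is shared between groups. Over all genes, 7 were called in females, 258 with the GC index as a term, 1046 without E249, 906 without E227, 1953 without both, and 0 to 38 without any other 1 library. Cd36 rested on 15 to 243 reads per library. With 4 to 6 mice per group, differences under about 1.5-fold were outside the threshold by definition.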
